A study of Mus musculus with 6 samples.

Results

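The transcripts described here are those of 7 genes that maintain or mark the naive state of mouse embryonic stem cells. They are the orphan nuclear receptor gene Esrrb and its nuclear receptor relatives Nr5a2 and Nr0b1. The others are the transcription factor genes Tfcp2l1, Tbx3 and Zfp42, and Ncoa3, which encodes a coactivator of ESRRB. The 7 genes were taken by name, with earlier results of these data known. Each matched a single row, giving 7 of 24736 genes in the expression table. Polyadenylated RNA was sequenced from embryonic stem cells (ESCs, 0 h, n = 3) and from epiblast-like cells (EpiLCs, 48 h, n = 3). Both groups were wild-type, and by the study's methods came from a single XY line, HM1 TetON, so the replicates, which the labels call biological, do not sample different lines. ESCs grew in 10% serum with LIF at 1000 U/ml on a layer of mitotically inactivated fibroblasts. EpiLCs were the same cells after separation from the feeders and culture in N2B27 medium with bFGF at 10 ng/ml and LGK974 at 5 µM, a porcupine inhibitor that blocks WNT secretion. Serum, LIF, feeders, bFGF, LGK974 and time therefore changed together, and their parts in any difference cannot be told apart. The labels and the main text of the study both give 48 h, whereas its culture methods give a longer time in this medium for EpiLCs.

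In the naive state, which resembles the epiblast of the blastocyst before implantation, ESRRB, TFCP2L1, TBX3 and their partners bind many of the same enhancers as OCT4, SOX2 and NANOG and keep one another transcribed. LIF signalling through STAT3 feeds the circuit at Tfcp2l1, and relief of repression by TCF7L1 feeds it at Esrrb. On exit towards the formative and primed states this layer is dismantled while Pou5f1, the gene for OCT4, stays on.

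All 7 genes were lower in EpiLCs, and 6 of them fell to between 1.08% and 5.22% of their mean ESC level. Ncoa3 fell to 47.4%. The summed TPM of the 7 genes (transcript abundance scaled for transcript length and library size) went from 1282 ± 207 in ESCs to 71.2 ± 1.76 in EpiLCs (mean ± SD, n = 3 each). In edgeR's quasi-likelihood test with Benjamini-Hochberg adjustment over 14468 genes, 7 of 7 were lower at an adjusted p of at most 0.05, against 22.8% of all genes tested. A log2 fold change below -4 was found for 6 of 7, against 1.49% of genes tested. The lowest ESC library lay above the highest EpiLC library for 7 of 7 genes, against 25.6% of genes tested. Because the 7 genes were chosen with earlier results of these data known, these shares are a description only. These are bulk samples, in which fewer cells carrying a transcript and less transcript per cell cannot be told apart.

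**Figure D1:**
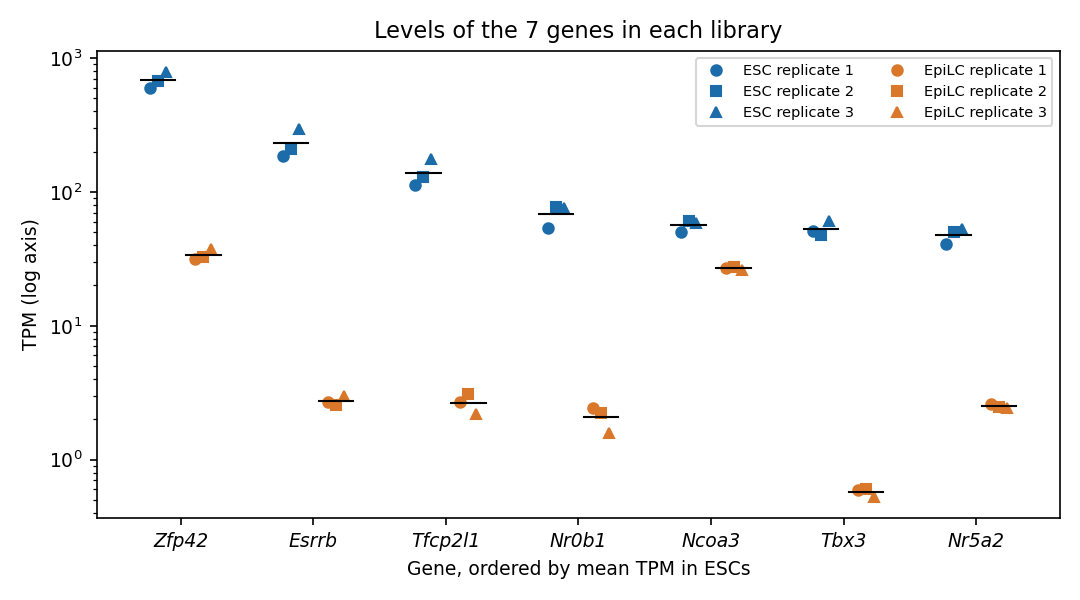
Level of each of the 7 genes in each library, in TPM on a log axis, with ESC libraries in blue, EpiLC libraries in orange, the replicate given by the marker and the group mean by a bar. In no gene do the groups overlap, and Ncoa3 has the narrowest gap, from 50.52 TPM in the lowest ESC library to 27.53 TPM in the highest EpiLC library.

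Esrrb encodes oestrogen-related receptor beta, a receptor with no known natural ligand that binds DNA as a monomer or dimer. Its gene spans chr12:86361117-86521628 (GRCm38). In ESC libraries 1, 2 and 3 its level was 186.45, 207.64 and 295.14 TPM, and in EpiLC libraries 1, 2 and 3 it was 2.68, 2.55 and 3.01 TPM. ESC replicate 3 stood highest, the EpiLC libraries lay close together, and the lowest ESC library was 61.9 times the highest EpiLC library. The transcript was 86.6-fold lower in EpiLCs (95% confidence interval 59.6 to 126; log2 fold change -6.44, SE 0.23, adjusted p = 1.83e-05), the fall ranking 33 of 14468. By level it went from place 694 to place 11057 among all 24736 genes.

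Nr5a2 encodes LRH-1, a nuclear receptor that binds single extended half-sites and regulates Pou5f1. The gene lies at chr1:136842562-136960448. Its levels were 40.45, 50.45 and 53.08 TPM in the ESC libraries and 2.59, 2.47 and 2.45 TPM in the EpiLC libraries. The EpiLC values were nearly equal, and the groups stood 15.6-fold apart at their closest. The log2 fold change was -4.30 (SE 0.14, adjusted p = 1.58e-05), or 19.7-fold lower.

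Nr0b1 encodes DAX1, an unusual member of the nuclear receptor family that lacks the classical DNA-binding domain and restrains other receptors, NR5A proteins among them. It is X-linked, at chrX:86191775-86195947. The ESC libraries held 53.68, 76.53 and 75.96 TPM and the EpiLC libraries 2.42, 2.23 and 1.58 TPM. ESC replicate 1 was the low library of its group and EpiLC replicate 3 the low library of the other. The fall was 34.2-fold (log2 fold change -5.09, SE 0.22, adjusted p = 4.23e-05).

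Tfcp2l1 encodes a CP2-family factor that is a direct target of LIF and STAT3. The gene lies at chr1:118627923-118685168. The ESC libraries held 112.35, 130.04 and 174.77 TPM and the EpiLC libraries 2.71, 3.09 and 2.18 TPM. As with Esrrb, ESC replicate 3 stood highest, and the groups were 36.4-fold apart at their closest. The transcript fell 54.3-fold (log2 fold change -5.76, SE 0.23, adjusted p = 2.56e-05), ranking 49 of 14468.

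Letters recognised by the factors of the network were looked for in the 300 bases around each start site (250 before and 50 after, RefSeq, GRCm38.p6), on both strands. The table held 7 such windows for 5 of the genes, Esrrb, Nr5a2, Nr0b1, Tfcp2l1 and Zfp42. Of 10 motifs, 8 matched in 0 of 7 windows: TCAAGGTCA and the AAGGTCA within it, which ERR proteins read and the longer of which NR5A proteins also read, CCAG followed after 6 bases of any kind by CCAG for TFCP2L1, AGGTGTGA for T-box proteins, AANATGGC for the YY1 family, CATTGTT for SOX proteins, TTCCNGGAA for STAT3 and ATCAAAG for TCF proteins. Over all 32851 windows of the table these were present in 0.423%, 4.72%, 3.44%, 1.28%, 6.05%, 3.78%, 1.15% and 3.73%, in that order. The other 2 motifs matched once each, without overlapping another motif searched. At the shares over all windows, 7 windows would hold 2.24 matches to the 10 motifs, so the 2 matches were no more than that. They are shown as the only matches near a start site of these genes. Each line gives the 250 bases before the start site, 5′ to 3′ on the strand of the gene, with the match in capitals.
Zfp42, chr8:43307010-43307259, minus strand: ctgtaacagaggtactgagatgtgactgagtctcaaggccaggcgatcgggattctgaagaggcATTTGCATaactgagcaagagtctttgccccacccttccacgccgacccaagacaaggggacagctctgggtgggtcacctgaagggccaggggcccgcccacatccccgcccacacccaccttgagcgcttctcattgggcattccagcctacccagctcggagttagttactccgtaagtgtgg
Tfcp2l1, chr1:118627695-118627944, plus strand: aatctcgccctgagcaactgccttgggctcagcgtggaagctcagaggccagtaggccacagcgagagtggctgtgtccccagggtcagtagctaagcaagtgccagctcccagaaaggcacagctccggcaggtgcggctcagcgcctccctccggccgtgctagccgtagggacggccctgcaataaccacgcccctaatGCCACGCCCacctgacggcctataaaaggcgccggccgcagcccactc
The octamer ATTTGCAT, read by POU factors such as OCT4 and OCT6, stood 186 to 179 bases before the Zfp42 start on the strand of the gene, and 1.74% of all windows held it. The KLF letters GGGNGTGGC stood on the opposite strand 48 to 40 bases before the Tfcp2l1 start, so that the line shows their reverse complement (the last bases of that line lie within the RefSeq span of the gene), and 5.76% of all windows held them. Such matches are letters in a window and no evidence of binding.

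Zfp42 encodes REX1, a zinc-finger protein of the YY1 family whose promoter drives the reporters commonly used to follow exit from naive pluripotency. The gene lies at chr8:43295067-43307009. It was the most abundant of the 7, at 599.43, 674.99 and 785 TPM in ESCs, and remained the most abundant in EpiLCs, at 31.44, 32.68 and 37.13 TPM. The groups were 16.1-fold apart at their closest, and the log2 fold change was -4.40 (SE 0.14, adjusted p = 1.58e-05), or 21.1-fold lower. Its EpiLC level still placed it 4581 of 24736 genes, where the other 5 genes that fell below -4 were placed between 11057 and 13417.

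Tbx3 encodes a T-box protein that acts mostly as a repressor and that supports self-renewal when LIF is limiting. The gene lies at chr5:119670534-119684724. Its levels were 51.29, 47.34 and 60.36 TPM in ESCs and 0.59, 0.60 and 0.53 TPM in EpiLCs. This was the greatest fall of the 7, 96.4-fold (log2 fold change -6.59, SE 0.14, adjusted p = 6.45e-06), ranking 26 of 14468. The EpiLC levels rested on 46, 44 and 36 counts, well above the 3 counts taken as the floor of detection.

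Ncoa3 encodes SRC-3, a p160 coactivator with acetyltransferase activity that nuclear receptors recruit and that ESRRB binds in ESCs. The gene lies at chr2:165992637-166073242. Its levels were 50.52, 60.49 and 58.90 TPM in ESCs and 26.99, 27.53 and 26.05 TPM in EpiLCs. The groups did not overlap, but their gap was only 1.84-fold. The transcript fell 2.19-fold (95% confidence interval 1.91 to 2.503; log2 fold change -1.13, SE 0.08, adjusted p = 1.66e-04), and 11.9% of genes tested fell further.

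**Figure D2:**
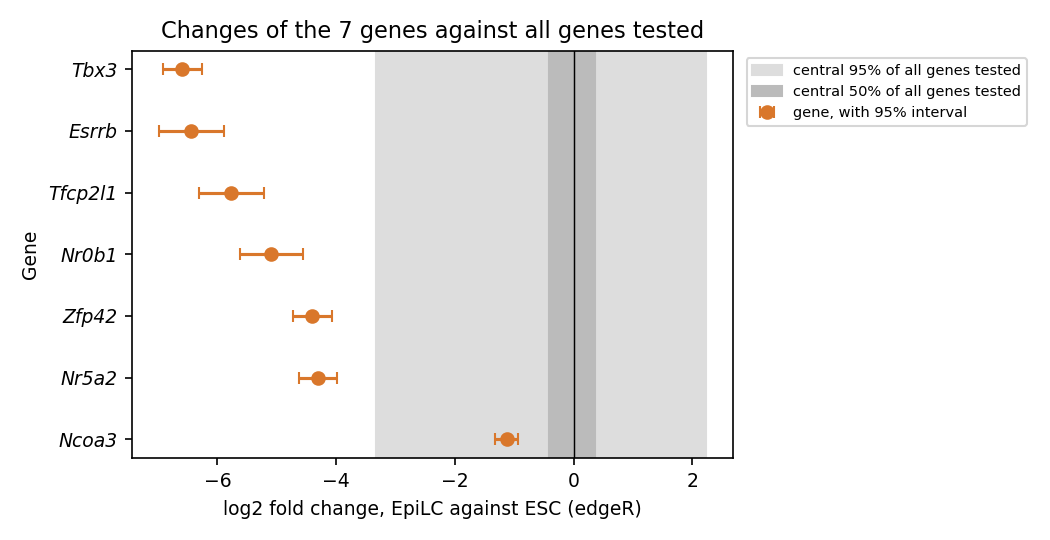
Log2 fold change of each gene, EpiLC against ESC, with its 95% confidence interval from edgeR, beside the ranges that hold the central 50% and 95% of all 14468 genes tested. The central 95% runs from -3.33 to 2.23, and Ncoa3, at -1.13, lies within it while the other 6 genes lie to its left.

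The sizes of fall formed a series from Tbx3 and Esrrb through Tfcp2l1 and Nr0b1 to Zfp42 and Nr5a2, with Ncoa3 last. Neighbours in this series were compared by their log2 ratio in each library, as a description with no test, since the order came from the same libraries. Tbx3 and Esrrb differed by -0.12 on the log2 scale with overlapping ratios, and Zfp42 and Nr5a2 also by -0.12 with overlapping ratios. The ratios of Esrrb to Tfcp2l1, Tfcp2l1 to Nr0b1 and Nr0b1 to Zfp42 did not overlap between the groups, with differences of -0.65, -0.70 and -0.66. Nr5a2 and Ncoa3 differed by -3.15, also without overlap.

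The order of the levels was also different in the 2 groups. In ESCs it ran Zfp42, Esrrb, Tfcp2l1 and Nr0b1 without overlap between these neighbours, and then Ncoa3, Tbx3 and Nr5a2, whose ranges overlapped, Nr0b1 and Ncoa3 overlapping too. In EpiLCs Zfp42 and Ncoa3 came first, each clear of the next, at 33.8 ± 2.99 and 26.9 ± 0.749 TPM. Esrrb, Tfcp2l1 and Nr5a2 overlapped at 2.75 ± 0.237, 2.66 ± 0.457 and 2.503 ± 0.0757 TPM, and Nr0b1, at 2.08 ± 0.440 TPM, lay below Esrrb and Nr5a2 without overlap but overlapped Tfcp2l1. Tbx3, at 0.573 ± 0.0379 TPM, was clear of all the others.

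Among the 3 ESC libraries, replicate 1 was lowest for 6 of the 7 genes, Tbx3 being lowest in replicate 2, and replicate 3 was highest for 5 of 7. Esrrb and Tfcp2l1 varied most, with the highest ESC library at 1.58 and 1.56 times the lowest, and they did so together: relative to the ESC mean, Esrrb stood at 81.2%, 90.4% and 128% in replicates 1, 2 and 3 and Tfcp2l1 at 80.8%, 93.5% and 126%. Ncoa3 varied least, 1.20-fold. Pou5f1 followed the same order over a narrower range, from 92.6% to 106% of its ESC mean. The summed TPM of 7 primitive streak markers ran the other way, at 432.56, 176.97 and 133.17. The summed TPM of 10 fibroblast markers, which the feeders would carry, was 226.39, 1053.75 and 80.36, so the library with the most fibroblast transcripts, replicate 2, lay between the others for 4 of the 7 genes. The part of either marker set in the spread of the 7 genes was not tested. Leaving out ESC replicate 1, 2 or 3 moved a log2 fold change of the 7 genes by at most 0.24.

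**Figure D3:**
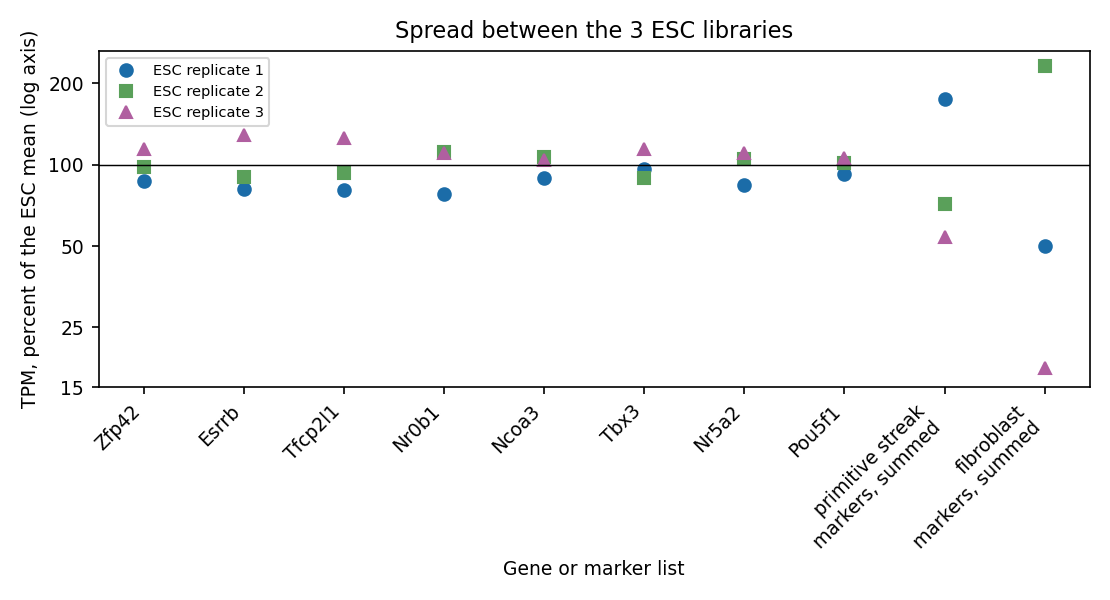
Level in each ESC library as a percentage of the ESC mean, on a log axis, for the 7 genes, Pou5f1 and the summed TPM of the primitive streak and fibroblast markers. The 7 genes stay between 78.1% and 128% of their means, while the marker sums reach 175% in replicate 1 for the streak and 232% in replicate 2 for fibroblasts.

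In the EpiLC libraries the 7 genes had no common order, the highest library being replicate 2 for 3 genes and replicates 1 and 3 for 2 each. EpiLC replicate 3 held more primitive streak transcript than the others, with a marker sum of 42.51 TPM against 3.52 and 4.02, and more Nanog, at 22.48 TPM against 7.72 and 5.95. In that library Esrrb, at 3.01 TPM, and Zfp42, at 37.13 TPM, were the highest of their group, and Tfcp2l1, Nr5a2, Nr0b1, Tbx3 and Ncoa3 were the lowest of theirs. Without ESC replicate 2 and EpiLC replicate 3 all 7 genes remained lower at the same threshold, a comparison added after the data were seen.

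Markers of other cells that such cultures can hold were measured beside the 7 genes, and their calls stand against 22.8% lower and 22.6% higher over all genes tested. Of the 7 primitive streak markers, all tested, 6 were lower and none higher, with a median log2 fold change of -5.02, beside -5.09 for the 7 genes. Mixl1 fell furthest (-5.17, adjusted p = 0.00107). The median of -5.02 was the value of Mesp1, which had 0, 5 and 2 counts in EpiLCs, around the floor of 3 counts. With at least 10 counts required in every library, fewer were tested and 2 rather than 6 were lower. Summed TPM of the streak markers went from between 133.17 and 432.56 in ESCs to between 3.52 and 42.51 in EpiLCs. Summed TPM of 9 primitive endoderm markers ranged from 40.56 to 74.05 in ESCs and from 11.9 to 12.43 in EpiLCs, with 6 of 9 tested lower, Gata6 furthest (-4.63, adjusted p = 2.14e-04), and 1 higher (Amn, a call absent in 7 of 16 alternatives). For 7 trophoblast markers the ranges were 86.64 to 182.91 and 15.2 to 24.96, with 4 of 6 tested lower, Tfap2c furthest (-3.96, adjusted p = 1.40e-04). One of these calls, for Hand1 (adjusted p = 0.0497), was lost in 10 of 16 alternatives. With at least 10 counts required in every library, 2 rather than 4 were lower. Eomes, which the primitive streak also expresses, made up 45.12 to 114.75 TPM of the ESC sums, and without it they were 41.52 to 68.16. For 7 markers of 2-cell-like cells the ranges were 8.26 to 26.22 and 1.09 to 1.36, with 4 of 4 tested lower. These markers were low in EpiLCs, and 1 rather than 4 was lower with at least 10 counts in every library. Of the fibroblast markers, 4 of 9 tested were lower and none higher, Col1a1 furthest (-4.74, adjusted p = 0.0144, a call lost in 3 of 16 alternatives, without EpiLC replicate 1 or 3 among them), the EpiLC sums being 42.21, 65.3 and 35.21 TPM. Thy1, which was not called (log2 fold change 0.05, adjusted p = 0.921), made up 20.12, 23.79 and 22.18 TPM of those sums. The 4 neural progenitor markers held 29.45 to 53.76 TPM in ESCs and 58.12 to 91.65 in EpiLCs, with 0 of 4 called in edgeR, 3 of 4 at an unadjusted p under 0.05, and 1 lower and 1 higher in DESeq2 (the number higher was 1 or 2 in 9 of 16 alternatives). Nes made up nearly all of these neural sums, at 25.14 to 49.69 TPM in ESCs and 54.46 to 89.28 in EpiLCs. Mean levels in ESCs and EpiLCs were 2.75 and 1.56 TPM for Pax6, 0.53 and 0.597 for Sox1, and 0.36 and 0.837 for Hes5. The part of any of these other cells in the levels of the 7 genes was not tested.

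Each of the 7 genes belongs to a family, and the question of what remained of the family in EpiLCs was asked next by summing TPM over its members. For the ERR family the sum went from 239 ± 57.7 to 13.9 ± 0.0737 TPM, and the share of Esrrb in it from 96.1% ± 0.803 to 19.8% ± 1.66. Esrra, which encodes a regulator of oxidative metabolism, stood at 8.95 ± 0.455 and 11.01 ± 0.201 TPM in ESCs and EpiLCs (log2 fold change 0.25, adjusted p = 0.120), and so made up most of the remaining ERR transcript. Esrrg was too low to be tested.

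The same held for the YY1 family, where the share of Zfp42 went from 84.5% ± 2.12 to 19.8% ± 1.19 and the sum from 811 ± 89.9 to 170.3 ± 5.30 TPM. Yy1, which is expressed in nearly all cells, was at 115 ± 4.70 and 129 ± 2.92 TPM (log2 fold change 0.12, adjusted p = 0.111). Yy2 was lower, at 10.2 ± 1.65 and 7.32 ± 0.687 TPM (log2 fold change -0.53, adjusted p = 0.0344), a call lost in 7 of 16 alternatives. In the CP2 and grainyhead family Tfcp2l1 went from 54.1% ± 4.63 to 1.94% ± 0.281 of a sum that itself went from 255 ± 37.5 to 137 ± 5.02 TPM. Ubp1 and Grhl2 were higher in EpiLCs, with log2 fold changes of 0.19 (adjusted p = 0.0302) and 0.64 (adjusted p = 0.00349), though the call for Ubp1 was lost in 9 of 16 alternatives, among them leaving out any single library, and that for Grhl2 in 0. Grhl3 was lower, at -1.56 (adjusted p = 0.00166).

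Tbx3 made up 96.7% ± 1.38 of the TBX2 subfamily in ESCs and 31.6% ± 2.77 in EpiLCs, where the whole subfamily held 1.82 ± 0.188 TPM. Its closest relative Tbx2 was also lower (log2 fold change -2.69, adjusted p = 0.0114) and Tbx4 higher (1.24, adjusted p = 0.0155), both at about 1 TPM or less in each group. Each of these calls was lost in 3 of 16 alternatives, without EpiLC replicate 2 in both cases and without ESC replicate 1 for Tbx4. Ncoa3 went from 71.4% ± 4.26 to 57.0% ± 1.10 of the p160 coactivators. Ncoa1 was lower, at 7.37 ± 1.59 and 3.85 ± 0.500 TPM (log2 fold change -0.995, adjusted p = 0.00493), and Ncoa2 was at 15.3 ± 2.18 and 16.4 ± 1.05 TPM (log2 fold change 0.05, adjusted p = 0.725). Nr5a2 and Nr0b1 were nearly the whole of the NR5A and NR0B families in both groups, with Nr5a1 and Nr0b2 near 0.

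These shares are given as a description with no test, since each depends on the fall of the gene itself. Over the 16 relatives of the 7 genes, 12 were tested, 4 were lower, 3 higher and 5 not called, with a median log2 fold change of 0.10. Over all genes tested the median was -0.00170, and 45.4% were called in either direction.

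**Figure D4:**
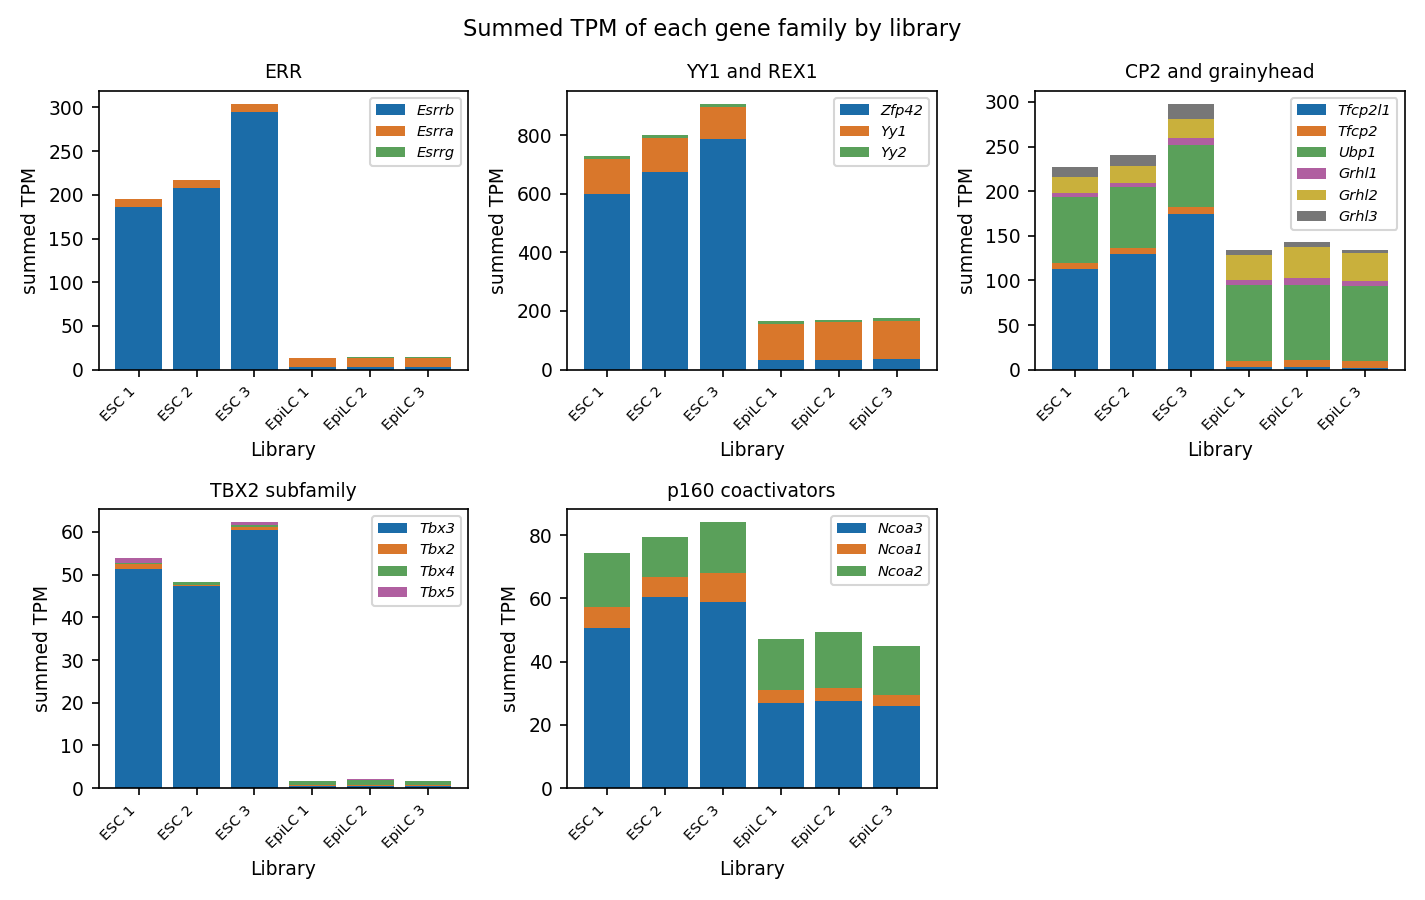
Summed TPM of 5 gene families in each library, as stacked bars on linear axes that start at 0, with the gene described here at the base of each bar in blue. In EpiLCs the blue base shrinks to 19.8% of the ERR sum and 1.94% of the CP2 and grainyhead sum, and Esrra, Yy1 and Ubp1 make up most of what remains in their families.

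Of 10 other pluripotency network factors listed and tested, 9 were lower and none higher, with a median log2 fold change of -2.37, beside 22.8% lower over all genes tested. Pou5f1 was the factor not called, and the call for Sall4 was lost in 7 of 16 alternatives. The greatest falls were those of Prdm14, a repressor of FGF signalling and DNA methylation (-6.71, adjusted p = 1.56e-04), Klf4 (-6.53, adjusted p = 1.93e-05), Klf2 (-5.41, adjusted p = 2.50e-05) and Nanog (-4.81, adjusted p = 7.03e-04). The EpiLC counts of Prdm14 were 2, 2 and 7, around the floor of 3 counts, so the size of its fall and its place before Klf4 are uncertain. It was not tested when at least 10 counts were required in every library. Pou5f1 held 1335 ± 91.8 TPM in ESCs against 1451 ± 112 TPM in EpiLCs (log2 fold change 0.07, adjusted p = 0.496). Set against Pou5f1 in the same library, Esrrb TPM came to 15.1%, 15.4% and 20.8% in the ESC libraries and 0.188%, 0.162% and 0.222% in the EpiLC libraries, and Zfp42 TPM to 48.5%, 49.96% and 55.4%, and 2.21%, 2.08% and 2.74%.

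Genes of the post-implantation epiblast rose. All 8 listed were tested and 8 were higher, against 22.6% of all genes tested, with a median log2 fold change of 1.74. This list too was chosen with earlier results of these data known. The genes that rose included Pou3f1, the gene for the neural and epiblast POU factor OCT6 (4.07, adjusted p = 1.66e-05), Sox3 (2.93, adjusted p = 9.30e-05) and the de novo DNA methyltransferase gene Dnmt3b (2.54, adjusted p = 5.89e-05).

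Upstream of the 7 genes stand the LIF receptor and its kinase, the WNT arm through GSK3 and TCF7L1, and TFE3 with its regulator folliculin. Of 11 genes on these inputs, all tested, 5 were lower, 2 higher (4 higher with upper-quartile normalization or with limma on log2(TPM + 1)) and 4 not called, with a median log2 fold change of -0.23, beside 22.8% lower and 22.6% higher over all genes tested. Those lower included Socs3, a feedback target of STAT3 (-4.13, adjusted p = 8.20e-05), Stat3 itself (-2.29, adjusted p = 3.41e-04), and the LIF receptor subunit genes Lifr (-2.10, adjusted p = 1.70e-04) and Il6st (-2.07, adjusted p = 4.32e-05). Tcf7l1, which encodes the repressor that acts on Esrrb, had 55.98, 68.86 and 64.26 TPM in the ESC libraries and 101, 102.9 and 104.2 TPM in the EpiLC libraries. It was higher in each EpiLC library than in any ESC library (log2 fold change 0.65, SE 0.09, adjusted p = 0.00137). Tfe3, a bHLH factor that acts on Esrrb when in the nucleus, was also higher (0.31, adjusted p = 0.00637), and Ctnnb1, Gsk3a, Gsk3b and Jak1 were not called. Flcn, the gene for folliculin, was lower (-0.23, adjusted p = 0.0262), a call lost in 9 of 16 alternatives.

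Nuclear receptors act through coregulators, many of which modify histones or recruit enzymes that do. Of 13 coregulators and partners listed, 12 were tested, 5 were lower, 2 higher and 5 not called, with a median log2 fold change of -0.18, beside 22.8% lower and 22.6% higher over all genes tested. Ncoa1, given above, fell furthest, followed by the acetyltransferase gene Kat2b (-0.93, adjusted p = 0.00180) and the corepressor gene Nrip1 (-0.84, adjusted p = 0.00752). The arginine methyltransferase genes Prmt1 (0.48, adjusted p = 0.00232) and Carm1 (0.33, adjusted p = 0.0193) were higher, the call for Carm1 being lost in 4 of 16 alternatives, without EpiLC replicate 1, 2 or 3 among them. Rlim, whose ubiquitin ligase product targets REX1 for degradation, held 129 ± 12.96 TPM in ESCs against 131 ± 5.55 TPM in EpiLCs (log2 fold change -0.03, adjusted p = 0.771).

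Profiles over the 6 libraries were compared by the root mean square difference of centred log2 CPM (counts scaled to library size), among the 13011 tested genes that averaged 1 CPM or more. The profile most like that of Esrrb was that of Tbx3, at 0.185, and the reverse also held. Nr5a2 and Zfp42 were likewise nearest to each other, at 0.114. Klf4 was the next nearest to both Esrrb (0.310) and Tbx3 (0.209), and Laptm5 to both Nr5a2 (0.151) and Zfp42 (0.183). Tfcp2l1 lay nearest to Tcl1 (0.229) and Mymx (0.258), Nr0b1 to Bcl3 (0.184) and Sh2d4b (0.187), and Ncoa3 to Slc29a3 (0.0445) and Dock5 (0.0485). With 6 libraries in 2 groups this measure mostly reads the size of the change between the groups.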

How the data were processed

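The authors trimmed reads with cutadapt (version 1.16), aligned them with STAR (2.5.2a) to mm10 and quantified genes with RSEM (1.3.0), per the submitters' processing notes and the study's methods. RSEM shares a read that maps to several genes among them by estimated abundance. The deposited table gave expected counts and TPM per gene and library, with replicates kept apart. Libraries summed to between 16967741 and 35096210 expected counts, so that 3 counts, taken as the floor, correspond to at most 0.177 CPM. This covers counting error only.

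Expected counts were rounded, filtered with filterByExpr and fitted over both groups in edgeR (4.0.16, R 4.3.3) with TMM normalization and quasi-likelihood tests, without covariates, at an adjusted p of at most 0.05. TPM served for levels and shares. Alternatives were DESeq2 (1.42.0), limma (3.58.1) on log2(TPM + 1) and log2(TPM + 0.1), other normalizations and filters, a replicate block and leaving out each library. Counts were also simulated for 14468 genes, of which 14312 were tested, 193 of them changed. There the edgeR fit called 83.5% of genes changed 4-fold and 44.8% of genes changed 2-fold, with 6 false calls. In the data 45.4% of genes tested were called, a far larger share, so these percentages do not carry over directly. No 2 libraries of a group agreed within sampling noise. Replicates of a single line measure the spread between these cultures only.

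The 7 genes and all lists were chosen with earlier results of these data known. Named besides these were, from each list, the called genes with the greatest absolute log2 fold change, the relatives with the highest TPM (none of the 2-cell-like list, whose multicopy genes share reads), and for each of the 7 genes the 2 nearest profiles. Further genes given with values, such as Pou5f1, Tcf7l1, Tfe3, Rlim, Tbx4 and Grhl2, were singled out after their values were seen. Positions are from RefSeq, GRCm38.p6, the assembly of mm10.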

Additional observations from a re-analysis of the deposited data

How the results depend on the processing

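The 7 genes were lower in all 16 alternatives, and 112 of 112 of their log2 fold changes kept direction and stayed past the threshold, with adjusted p at most 0.00396. Fold changes of Tbx3 ran from -6.67 to -5.09, the latter with limma on log2(TPM + 1), which shrinks low levels, and those of Ncoa3 from -1.22 to -1.05. The number of genes called fell from 6571 to 4244 without EpiLC replicate 1 (2144 higher, 2100 lower) and reached 7181 (3572 and 3609) at the other end of the leave-one-out range. Without ESC replicate 1 and EpiLC replicate 3, a setting like that without ESC replicate 2 and EpiLC replicate 3 added after the data were seen, it was 3411 (1709 higher, 1702 lower), with fewer samples. The family share of Nr0b1 was reversed without EpiLC replicate 2, at 0.146 percentage points higher in EpiLCs against -4.49 with all libraries (leave-one-out range -6.80 to 0.146), and that library, at 86.1%, was the only EpiLC library below 100%. Requiring at least 10 counts in every library, which tests fewer genes, left 2 rather than 6 streak, 2 rather than 4 trophoblast and 1 rather than 4 2-cell-like markers lower. Neural progenitor markers higher moved from 0 to 1 or 2 in 9 of 16 alternatives. Other list counts that moved by over 1.5 times included fibroblast markers lower (2 rather than 4 without EpiLC replicate 1 or 3, and 0 without ESC replicate 1 and EpiLC replicate 3), relatives higher (1 rather than 3 without ESC replicate 1 or EpiLC replicate 2), coregulators higher (1 rather than 2 without EpiLC replicate 1, 2 or 3), and the single metabolic target higher and the single primitive endoderm marker higher (both 0 likewise).

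Same-numbered libraries deviated together with correlations of 0.00668, 0.186 and 0.170 over 14468 genes. Between libraries with different numbers the correlations ran from -0.215 to 0.0836, below 0.186 and 0.170. The main fit did not take the numbers as pairs, and a block for them was fitted as an alternative. A replicate block called 6085 genes, 5828 of them among the 6571, and gave log2 fold changes of -6.41 for Esrrb and -1.12 for Ncoa3, all 7 genes remaining lower. Counts of 36 to 46 limit the precision of Tbx3 in EpiLCs.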

Other observations

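Of 6 metabolic genes that ERR proteins are known to regulate, 2 were lower, 1 higher and 3 not called by edgeR, a share near the 45.4% called over all genes tested, with a median log2 fold change of -0.12. Pdk4, a kinase that restrains pyruvate dehydrogenase, went from 5.19 ± 0.756 to 2.43 ± 0.571 TPM (-1.15, adjusted p = 0.00617), and Acadm, for medium-chain fatty acid oxidation, from 92.7 ± 11.8 to 64.0 ± 2.86 TPM (-0.59, adjusted p = 0.00520). Cycs, the gene for cytochrome c, was higher at 0.27 (adjusted p = 0.0330), a call lost in 6 of 16 alternatives, among them leaving out EpiLC replicate 1, 2 or 3 and the replicate block.

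Steroidogenic targets of NR5A proteins, known from gonad and adrenal, were low in both groups. None of the 6 listed exceeded 1.58 TPM in any library. Of the 6, 3 could be tested and 0 were called by edgeR, with 0 at an unadjusted p under 0.05 and 0 by DESeq2, beside 45.4% called over all genes tested, and 3 genes are too few to read this against. Star, which carries cholesterol into mitochondria, had 1.14 ± 0.0586 TPM in ESCs, where Nr5a2 was high, against 1.09 ± 0.0757 TPM in EpiLCs.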
